A study of Homo sapiens with 6 samples.

Results

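The regions described here are PLAG1-S peaks at which USF2 was called in 1 of 2 cell clones and not reproducibly in both. They were chosen from the peak calls. PLAG1-S peaks of clone 4 that shared 1 bp or more with a PLAG1-S peak of clone 5 are called reproducible, and 21469 such peaks were found. Of these, 3098 peaks (14.4%) had at least 1 USF2 peak of clone 4 or clone 5 within 100 bp, edge to edge, but no USF2 peak that the clones shared. The 4 peak lists of the series hold 81170 peaks in all.

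Both clones are K562 cells, a human line from chronic myelogenous leukemia, and both were made to overexpress FLAG-tagged PLAG1-S together with USF2. Both open reading frames came from the same vector, in which a P2A site separates them, so that no group without the overexpression enters these comparisons. Chromatin of clone 4 and of clone 5 was pulled down with anti-FLAG, which sees only the tagged PLAG1-S, and with anti-USF2, which can see the cells' own USF2 as well. Each line is a clone, and each factor has 1 library per clone, so that a difference between clones cannot be told apart from a difference between libraries.

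USF2 is a basic helix-loop-helix leucine zipper factor that binds the E-box CACGTG as a dimer, usually with USF1, and many of its sites lie near gene starts. PLAG1 is a C2H2 zinc finger factor that recognises a bipartite G-rich site, and it was first known as an oncogene of salivary gland adenomas. PLAG1-S is a short translational form of it. K562 cells carry the Philadelphia chromosome, in which parts of chromosomes 9 and 22 are joined and from which the BCR-ABL1 fusion arises.

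The promoters printed next show where the E-box stands under members of the set. Among the 57 genes named by a rule on PLAG1-S fold, USF2 fold and gene lists, 30 had a RefSeq promoter window under the member, and 7 of these held CACGTG. Only 15843 of 20037 coding genes have a start in the reference used, so a named gene can lack a window for that reason. The 6 with the largest PLAG1-S fold are shown, as the 250 bases before a RefSeq transcript start, 5′ to 3′ on the strand of the gene (RefSeq, GRCh38.p14), with CACGTG in capitals. NUS1 lies at chr6:117675219-117675468 on the + strand, HK2 at chr2:74834920-74835169 on the + strand, LDHA at chr11:18394313-18394562 on the + strand, MNT at chr17:2401061-2401310 on the - strand, ALDOA at chr16:30064247-30064496 on the + strand and ZNF324 at chr19:58466830-58467079 on the + strand. The starts used for HK2 and ALDOA are alternative ones that lie inside the annotated gene. The first 5 are members through clone 4 USF2, and ZNF324 is a member through clone 5 USF2.
NUS1: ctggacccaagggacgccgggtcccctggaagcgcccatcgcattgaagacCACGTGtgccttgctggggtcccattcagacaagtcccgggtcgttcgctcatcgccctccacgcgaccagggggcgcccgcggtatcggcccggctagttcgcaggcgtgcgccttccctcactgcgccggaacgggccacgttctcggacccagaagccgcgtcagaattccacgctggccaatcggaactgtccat
HK2: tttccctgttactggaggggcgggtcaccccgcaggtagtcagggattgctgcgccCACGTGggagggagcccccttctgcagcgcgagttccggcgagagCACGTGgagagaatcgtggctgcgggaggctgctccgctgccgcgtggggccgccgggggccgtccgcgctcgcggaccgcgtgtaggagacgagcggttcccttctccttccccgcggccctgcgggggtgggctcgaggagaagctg
LDHA: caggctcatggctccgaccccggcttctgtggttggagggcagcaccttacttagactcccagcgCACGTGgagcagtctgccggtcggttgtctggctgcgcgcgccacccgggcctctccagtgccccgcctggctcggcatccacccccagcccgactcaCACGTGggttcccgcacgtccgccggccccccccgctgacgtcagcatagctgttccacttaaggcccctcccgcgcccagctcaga
MNT: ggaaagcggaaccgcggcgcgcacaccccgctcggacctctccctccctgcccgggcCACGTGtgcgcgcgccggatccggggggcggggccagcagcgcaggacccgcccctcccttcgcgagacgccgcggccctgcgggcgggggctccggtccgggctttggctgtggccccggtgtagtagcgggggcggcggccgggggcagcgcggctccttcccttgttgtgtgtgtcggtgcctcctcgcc
ALDOA: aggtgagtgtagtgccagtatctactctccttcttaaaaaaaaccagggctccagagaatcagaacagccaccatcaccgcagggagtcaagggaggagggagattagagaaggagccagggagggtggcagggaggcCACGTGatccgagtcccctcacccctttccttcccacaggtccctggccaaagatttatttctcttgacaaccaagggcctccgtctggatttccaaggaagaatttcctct
ZNF324: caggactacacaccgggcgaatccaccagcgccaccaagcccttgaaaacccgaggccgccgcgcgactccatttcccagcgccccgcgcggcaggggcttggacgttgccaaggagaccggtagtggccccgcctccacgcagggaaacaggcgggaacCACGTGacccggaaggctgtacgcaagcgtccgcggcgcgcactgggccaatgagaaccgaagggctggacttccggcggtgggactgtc

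In NUS1, which encodes a subunit of the enzyme that makes dolichol, the E-box stood 10 bp from the clone 4 USF2 summit and 6 bp from the PLAG1-S summit. HK2, the glucose-phosphorylating hexokinase, had 2 E-boxes, 44 and 1 bp from the USF2 summit. LDHA, a lactate dehydrogenase subunit, also had 2, at 3 and 95 bp. The E-box of MNT, a MAX partner that represses transcription, was 29 bp from the USF2 summit. In ALDOA, a glycolytic aldolase, it was 11 bp from the PLAG1-S summit but 325 bp from the USF2 summit. In the KRAB zinc finger gene ZNF324 the clone 5 USF2 summit fell on the E-box itself, at 0 bp. A match of letters is a description and not a measured site.

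The 3098 members were split by the clone in which USF2 was called. In 2769 members (12.9% of the reproducible PLAG1-S peaks) USF2 was called in clone 4 only, and in 292 (1.36%) in clone 5 only. The other 37 had a USF2 peak of each clone within 100 bp, but these did not overlap each other, and the gap between them was 101 bp at the median, from 1 to 407 bp. For comparison, 2109 reproducible PLAG1-S peaks had a reproducible USF2 peak within 100 bp and are called co-bound here, and 16262 had no USF2 peak. The lists differed in length, with 9338 USF2 peaks in clone 4 and 4369 in clone 5, and the labels give the same 42.5 M reads for each of these libraries. With the clone 4 USF2 list cut to the length of the clone 5 list by −log10 q, 1381 members remained through clone 4 and 500 were counted through clone 5, 1896 in all. With a −log10 q of at least 5 in all 4 lists, the numbers were 1733 and 144, and 1883 in all, and with every clone 5 PLAG1-S peak in place of the reproducible ones clone 5 members numbered 482.

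USF2 at the members was weaker than at co-bound peaks. The rule used these calls, so the values are a description. The fold, the authors' enrichment at the summit over the local background, had a median of 4.25 in the clone 4 subset (quartiles 3.60 and 5.00, highest 11.4) and 4.06 in the clone 5 subset. At co-bound peaks it was 7.49 in clone 4 and 5.72 in clone 5. The −log10 q was at least 10 at 384 clone 4 members and at 13 clone 5 members. A median of 20 fragments lay over the USF2 summit in the clone 4 subset and 19 in the clone 5 subset, as recovered from the deposited values. At the 100 bp limit, 56 PLAG1-S peaks had their nearest clone 4 USF2 peak of this kind 51 to 100 bp away, with a median fold of 3.72, and 55 peaks just outside, at 101 to 150 bp, had 3.87. For clone 5 the numbers were 12 peaks with 3.53 inside and 15 peaks with 3.43 outside. Most members did not depend on the limit, since a USF2 peak of this kind overlapped the PLAG1-S peak itself at 2712 peaks for clone 4 and 302 for clone 5.

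Whether a USF2 peak recurred in the other clone moved with its fold. Of the clone 4 USF2 peaks at reproducible PLAG1-S peaks, 18.0% (95% Wilson interval 15.5 to 20.7, n = 835) had an overlapping clone 5 peak at a fold under 3.5. The share was 13.6% (11.2 to 16.4) at a fold of 3.5 to 4, 18.3% at 4 to 5, 34.4% at 5 to 6, 67.2% at 6 to 8, 88.4% at 8 to 10 and 99.6% at 10 or more. Clone 5 USF2 peaks recurred in clone 4 more often in every bin under 10, from 68.9% (63.6 to 73.7, n = 318) under 3.5 and 63.9% at 3.5 to 4 up to 100% at 8 to 10, and in 99.7% at 10 or more. They were sought in the longer list, with 9338 clone 4 peaks against 4369 of clone 5, and the part of list length was not tested. USF2 peaks found in clone 4 only lay within 100 bp of a reproducible PLAG1-S peak in 3023 of 6929 cases (43.6%, 42.5 to 44.8). Those found in clone 5 only did so in 353 of 1936 cases (18.2%, 16.6 to 20.02). These shares leave out the 2409 clone 4 and 2433 clone 5 USF2 peaks that recurred. With lists of unlike length, they therefore do not compare all USF2 peaks of the clones.

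**Figure D1:**
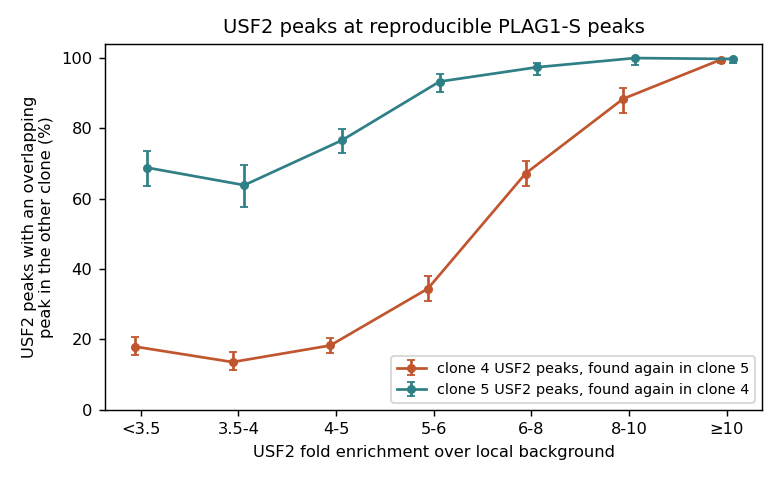
Share of USF2 peaks at reproducible PLAG1-S peaks with an overlapping USF2 peak in the other clone (vertical, percent), by USF2 fold (horizontal, 7 bins), with 95% Wilson intervals. The clone 4 line starts at 18.0%, dips to 13.6% at a fold of 3.5 to 4 and ends at 99.6%, and the clone 5 line starts at 68.9% and dips to 63.9%.

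The summits of the factors lay close together in the clone 4 subset. From the PLAG1-S summit to that of USF2 the median was 42 bp (95% interval 39 to 44) in the clone 4 subset, 84.5 bp (59 to 101) in the clone 5 subset and 15 bp at co-bound peaks. Summits were within 50 bp of each other in 55.9% of clone 4 members, 41.6% of clone 5 members and 82.2% of co-bound peaks. In the 37 members with separate USF2 peaks the clone 4 USF2 summit was 159 bp away at the median.

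PLAG1-S was stronger at clone 4 members than at clone 5 members in both clones. The clone 4 PLAG1-S fold had a median of 9.26 (95% interval 9.01 to 9.48) in the clone 4 subset and 6.10 (5.51 to 6.78) in the clone 5 subset, beside 18.8 at co-bound peaks and 5.80 at peaks with no USF2. In the clone 5 PLAG1-S library the medians were 7.20, 5.82, 14.4 and 5.28 in the same order. Neither fold was used to choose members beyond the call itself, and in both libraries the clone 4 subset stood between the co-bound peaks and the peaks with no USF2. Peaks were also wider in the clone 4 subset, with a median of 458 bp against 372.5 bp in the clone 5 subset, 655 bp at co-bound peaks and 319 bp with no USF2. The strongest clone 4 member, inside a coding gene at chr21:45874865-45875714, had folds of 45.9 in clone 4 and 44.1 in clone 5. The strongest clone 5 member, at chr19:15161021-15161818 and also inside a coding gene, had 25.8 and 25.5.

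The share of members therefore differed along the range of PLAG1-S strength. When the reproducible peaks were ranked by the geometric mean of both folds and divided into 10 equal groups, clone 4 members made up 9.46% of the weakest group, 5.64% of the third, 29.6% of the ninth and 18.7% of the strongest. Clone 5 members made up 2.84% of the weakest group and 0.652% of the strongest, with 0.699% in the second and 1.82% in the eighth, so that their share did not follow the order of the groups. Co-bound peaks made up 63.9% of the strongest group, in which 16.6% had no USF2 peak.

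PLAG1-S was compared between the clone that had the USF2 peak and the clone that did not. The log2 ratio of the PLAG1-S fold with USF2 to that without had a median of 0.26 (95% interval 0.24 to 0.28) over both subsets, and it was above 0 in 2213 of 3061 members (72.3%). The direction was not the same in the subsets. In the clone 4 subset the fold was higher with USF2, with a median of 0.29 (0.27 to 0.31), and in the clone 5 subset it was lower, by a median of -0.06 (-0.13 to -0.03), with 40.4% of members above 0. With the clone as a replicate block, which weights the subsets equally, the value was 0.11. The larger value over both subsets thus rests on the clone 4 subset, which holds most of the members.

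Read as clone 4 over clone 5, the same folds gave a median log2 ratio of 0.29 in the clone 4 subset and 0.06 (0.03 to 0.13) in the clone 5 subset, beside 0.30 at co-bound peaks and 0.13 at peaks with no USF2. The fold was higher in clone 4 at 75.9% of clone 4 members and 60.5% of clone 5 members, a difference of 15.4 points (Newcombe 95% interval 9.68 to 21.4). Peaks with no USF2 were at 62.4%, and the clone 5 subset differed from them by -1.89 points (-7.70 to 3.65). In the 3 strongest groups the subsets were close in value, at 0.39 (0.37 to 0.41, n = 1512) for clone 4 and 0.38 (0.24 to 0.46, n = 90) for clone 5, beside 0.32 at co-bound peaks and 0.27 (0.25 to 0.29) at peaks with no USF2, a value that the clone 5 interval takes in. The clone ratio thus moved with PLAG1-S strength, and its part in the difference between the subsets is shown only by these values.

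Members were compared by their position relative to genes on chromosomes 1 to 22, X and Y, which hold 3074 of them. Within 1 kb of either end of a protein-coding gene lay 45.5% of clone 4 members (1251 of 2751, 43.6 to 47.3) and 36.01% of clone 5 members (103 of 286, 30.7 to 41.7), beside 41.7% of all reproducible PLAG1-S peaks. The difference was 9.46 points (3.45 to 15.1). All members together were at 44.6%, which was 15.8 points below the co-bound peaks at 60.4% (difference -15.8, -18.5 to -13.0) and 5.89 points (3.98 to 7.80) above the peaks with no USF2 at 38.7%. The interval of the difference between the subsets took in 0 with the clone 4 USF2 list cut to the length of the clone 5 list (4.40 points, -0.71 to 9.37), with a −log10 q of at least 5 (8.59, -0.02 to 16.5), with gene ends within 3 kb (5.33, -0.73 to 11.4), with genes of all types (6.04, -0.02 to 12.1), among the stronger 5 of the 10 groups of PLAG1-S fold (6.35, -2.00 to 14.2), and without chromosomes 9 and 22 (5.32, -1.60 to 12.0). The difference between members and peaks with no USF2 was 12.5 points when all clone 4 PLAG1-S peaks were taken without the clone 5 library, and 2.56 points (0.23 to 4.92) with the shortened clone 4 USF2 list. Among the weaker 5 groups the members differed from co-bound peaks by -0.87 points (-8.75 to 6.83) and from peaks with no USF2 by 2.87 points (-0.48 to 6.26).

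Gene starts separated the subsets further. Within 1 kb of a RefSeq start of a coding gene lay 40.3% of clone 4 members (1108 of 2751) and 23.4% of clone 5 members (67 of 286), a difference of 16.8 points (11.3 to 21.7). The reference gave starts for only 15843 of 20037 coding genes, so all start shares given here are undercounts. They were not recomputed with the shortened clone 4 USF2 list or with a −log10 q of at least 5. Co-bound peaks were at 52.1% and peaks with no USF2 at 33.5%. Clone 4 members were 6.79 points (4.83 to 8.77) above the peaks with no USF2, whereas clone 5 members were 10.1 points below them (difference -10.1, -14.7 to -4.77). The order of the subsets was the same in the weaker 5 groups, at 40.5% and 20.1% (difference 20.4, 12.2 to 27.2), and in the stronger 5, at 40.2% and 26.5% (13.6, 5.69 to 20.5). In the stronger 5 groups the clone 5 subset differed from the peaks with no USF2 by -3.79 points (-10.4 to 3.95), and in the weaker 5 by -15.5 points (-21.5 to -8.06). Without chromosomes 9 and 22 the subsets were at 41.6% and 29.4% (12.3, 5.60 to 18.2), but the clone 5 subset then differed from the peaks with no USF2 by -4.57 points (-10.3 to 1.84). Away from gene ends, 30.0% of clone 4 and 33.6% of clone 5 members lay inside a coding gene, and 15.0% and 18.9% lay between genes.

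Chromosome 22 held 17.5% of clone 5 members (50 of 286, 13.5 to 22.3) and 5.89% of clone 4 members (162 of 2751, 5.07 to 6.83), a difference of -11.6 points (clone 4 minus clone 5, -16.5 to -7.52). It held 5.29% of co-bound peaks and 3.63% of peaks with no USF2. Of the 50 clone 5 members there, 48 lay in the first 25 Mb, as did 132 of the 162 clone 4 members. The local background recovered from the clone 4 PLAG1-S list was high at these peaks, with a median of 9.55 fragments at clone 5 members on chromosome 22 against 3.49 on the other chromosomes, and 10.1 against 3.76 at clone 4 members. Co-bound peaks on chromosome 22 had a high background as well, 8.59 against 4.01 elsewhere. The background was 6 or more at 22.7% of clone 5 members, 12.4% of clone 4 members, 13.997% of co-bound peaks and 7.46% of peaks with no USF2. The part of the background in the calls was not tested.

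**Figure D2:**
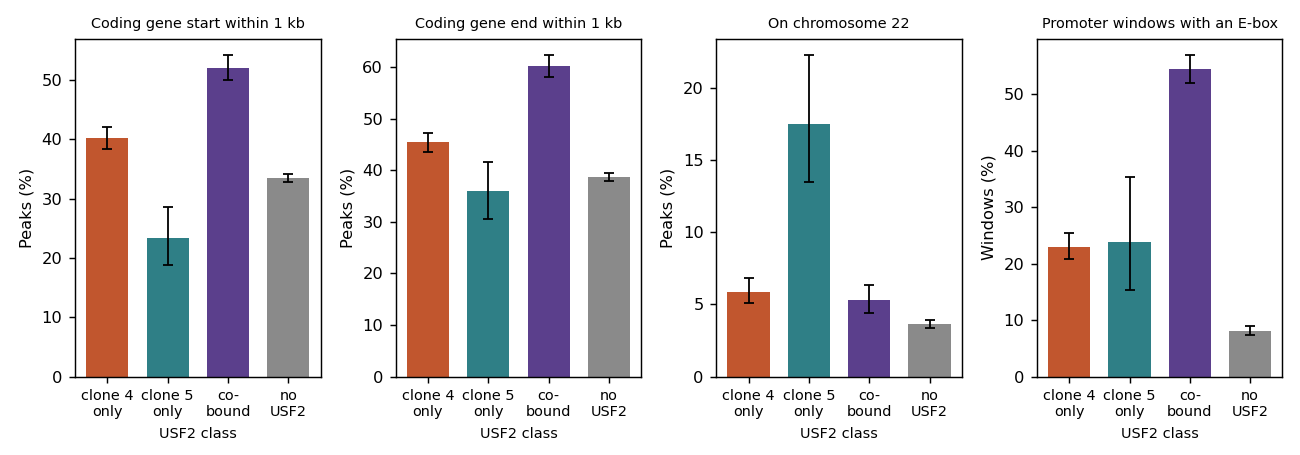
Share of peaks within 1 kb of a coding gene start, within 1 kb of a coding gene end and on chromosome 22 (percent of peaks), and share of promoter windows under the peaks that hold CACGTG (percent of windows), by USF2 class, with 95% Wilson intervals. Clone 5 members have the lowest gene start share, 23.4%, and the highest chromosome 22 share, 17.5%, while both subsets lie at 23.03% and 23.9% for the E-box.

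The sequence of the promoters under the members was compared next, since letters were not used to choose them. RefSeq windows of 300 bases, from 250 before to 50 after a start, were taken where a peak touched them. CACGTG, which reads the same on both strands, was present in 23.03% of windows under clone 4 members (295 of 1281, 20.8 to 25.4) and 23.9% under clone 5 members (16 of 67, 15.3 to 35.3), against 7.26% of all 35116 windows. Under co-bound peaks the share was 54.5% (844 of 1548) and under peaks with no USF2 8.13% (402 of 4942). Clone 4 members were 14.9 points (12.5 to 17.4) and clone 5 members 15.7 points (7.10 to 27.2) above the peaks with no USF2, and clone 4 members were 31.5 points below the co-bound peaks (difference -31.5, -34.8 to -28.0). The subsets differed by -0.85 points (-12.5 to 8.08), an interval too wide to show that they are alike. In windows that held the PLAG1-S summit the shares were 38.7% and 39.4% (13 of 33), with 84.1% under co-bound peaks and 13.7% under peaks with no USF2.

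The E-box share moved with the strength of both factors. Clone 4 members with a USF2 fold at or above the median of 4.25 had CACGTG in 31.0% of windows, and those below it in 14.8%, a difference of 16.2 points (11.6 to 20.7). In the weaker 5 of the 10 groups of PLAG1-S fold, clone 4 members were at 5.69% (16 of 281) and peaks with no USF2 at 5.31%, a difference of 0.38 points (-1.96 to 3.83). In groups 6 to 8 they were at 22.2% and 11.2% (11.01, 7.02 to 15.4), in the ninth at 28.8% and 12.1% (16.7, 10.9 to 22.5), and in the strongest at 36.8% and 15.1% (21.7, 12.4 to 29.9). Between weak clone 4 members and weak peaks with no USF2 a difference in the E-box was thus not detectable at this number of windows. A low share at weak peaks was not particular to members, since co-bound peaks were at 1.82% (1 of 55) in the weaker 5 groups. They were at 16.8% in groups 6 to 8, 43.3% in the ninth and 61.5% in the strongest. Clone 5 members in the weaker 5 groups were at 16% (4 of 25, 6.40 to 34.7), from few windows, against 4.54 to 6.21 for the interval of the peaks with no USF2.

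Where an E-box lay in the window, it stood near the summits. At 242 clone 4 members it was 18 bp (95% interval 15 to 24) from the USF2 summit and 12 bp (10 to 16) from the PLAG1-S summit at the median. At 660 co-bound peaks it was 9 and 8 bp away, and at 365 peaks with no USF2 it was 25 bp (19 to 27) from the PLAG1-S summit. Only 14 clone 5 members could be measured, with a median of 37.5 bp to each summit. The PLAG1 core, searched as GGGGC or GAGGC, 6 to 8 bases N and GGG on both strands, was in 55.3% of windows under clone 4 members, 50.7% under clone 5 members, 52.4% under co-bound peaks and 56.1% under peaks with no USF2, against 32.2% of all windows. The difference between clone 4 members and peaks with no USF2 was -0.72 points (-3.79 to 2.31) over all windows, but in the strongest of the 10 groups clone 4 members were at 53.6% and peaks with no USF2 at 67.5% (difference -13.9, -23.8 to -3.30). The windows under members were richer in G and C than all windows, with medians of 69.7% and 58.7%. Windows under peaks with no USF2 also had a median of 69.7%, and those under co-bound peaks 69%. The part of base composition in these shares was not tested.

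Genes were counted where a member lay within 1 kb of either end. Of 20037 coding genes, 1515 (7.56%) had a member, 1398 (6.98%) through the clone 4 subset and 116 (0.579%) through the clone 5 subset. Co-bound peaks were at 1483 genes (7.4%), and any reproducible PLAG1-S peak was at 40.1%. A member and a co-bound peak stood together at 106 genes, which is 6.997% of the genes with a member. Among the genes named below these include SRSF2, RASA4B, TFAP4, NR1D1, FTH1, FTL and INSIG1, where USF2 was thus reproducible at another PLAG1-S peak of the gene. At 964 genes the members were the only reproducible PLAG1-S peaks.

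CEBPA, a transcription factor of myeloid differentiation, had the strongest PLAG1-S peak among clone 4 members near a coding gene end. The peak, at chr19:33301901-33303519, took in the gene's start, with folds of 31.8 in clone 4 and 30.7 in clone 5, while clone 4 USF2 had a fold of 4.14. CYBRD1, a ferric reductase, had PLAG1-S folds of 29.7 and 25.6 at its start with a USF2 fold of 5.03. SPATA9 had 29.2 and 27.6, with USF2 at 7.77. CABLES2 had 29.0 and 27.8, with a USF2 summit 861 bp away in the same wide peak. NUS1, whose E-box is printed above, had 27.4 and 20.6.

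Other clone 4 members stood out by their USF2 fold. VPS13C, a lipid transfer protein, had the highest value, with a USF2 fold of 11.4 and a −log10 q of 32.3, 17 bp from a PLAG1-S summit with folds of 15.6 and 14.4. TYMP, thymidine phosphorylase, had a USF2 fold of 10.9 at its downstream end, at chr22:50525497-50526764, where PLAG1-S was at 23.5 and 19.6. KLF3, a Krüppel-like factor, had 9.22 at USF2 and 18.7 against 10.7 at PLAG1-S in clones 4 and 5. BBS9, a BBSome subunit, had a USF2 fold of 9.20, and SRSF2, a splicing factor that also has a co-bound peak, 9.10. In the bins of USF2 fold that hold these 5 peaks, 88.4% and 99.6% of clone 4 peaks recurred in clone 5. That these 5 did not recur follows from the rule that chose them.

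The clone 5 members near coding genes were weaker. C5orf22 had PLAG1-S folds of 18.0 in clone 4 and 14.6 in clone 5, with clone 5 USF2 at 4.68. RPN1, a subunit of the oligosaccharyltransferase, had 17.9 and 11.9, and ZNF324, printed above, 17.2 and 13.5. GCGR, the glucagon receptor, had 16.2 and 12.0 at a peak past the end of the gene, and PFDN2, a prefoldin subunit, 15.8 and 10.5. At these 5 genes PLAG1-S was higher in clone 4, the clone without the USF2 call. They were chosen by their clone 4 fold, which favours that direction, and 60.5% of all clone 5 members had it.

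The largest USF2 fold of the clone 5 subset, 21.3, belonged to RASA4B and rests on how the rule met a wide peak. The clone 5 USF2 peak spanned chr7:102515850-102518236 and overlapped a clone 4 USF2 peak elsewhere, while the small PLAG1-S peak had folds of 3.33 and 3.71. RASA4B also has near-identical copies, so that its reads may be split or shared. In all, 7 clone 5 members were of this kind. The next clone 5 members by USF2 fold lay near the end of chromosome 9, at chr9:11216-11646 with 12.99 and chr9:17263-17896 with 7.61. Among clone 5 members near a coding gene end, RASA4B was followed by LOC105370092 at 5.53, MAP3K8, a MAP kinase kinase kinase, at 5.24, and LFNG, a glycosyltransferase that modifies Notch receptors, at 5.16.

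At 15 genes a clone 4 member and a clone 5 member stood at PLAG1-S peaks that are separate in clone 4 coordinates. MXD4, a MAX partner, had a clone 4 member at its start, with PLAG1-S folds of 10.8 and 9.57, and a clone 5 member at its other end, with 4.10 and 5.43. FN3K, a kinase of glycated proteins, had a clone 4 member 47 bp from its start, with 10.7 and 8.55, and a clone 5 member past its other end, with 5.87 and 5.49. SNX9, a sorting nexin, had a clone 5 member 288 bp and a clone 4 member 547 bp from its start, summit to start. Both SNX9 members had the same clone 5 PLAG1-S fold, 7.98 from 38 fragments, so that they appear to meet the same clone 5 peak. FBXO5, an inhibitor of the anaphase-promoting complex, had folds of 9.05 and 9.16 at the clone 5 member and 6.23 and 5.91 at the clone 4 member.

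Gene lists of pathways with E-box factors were set against the share of all coding genes with a member, 7.56%. Any reproducible PLAG1-S peak was at 40.1% of all coding genes, but at 52.8% (autophagy) to 72% (V-ATPase) of the genes of a list. The member shares were not adjusted for this, so a share above 7.56% is not by itself an excess of members among PLAG1-S peaks. Lysosomal genes with a member numbered 8 of 78 (10.3%), all of them through clone 4, while 31 had a co-bound peak and 56 had any reproducible PLAG1-S peak. They include the galactosylceramidase gene GALC with PLAG1-S folds of 16.1 and 12.3, the sialic acid transporter gene SLC17A5 with 14.9 and 8.21, the beta-galactosidase gene GLB1 with 14.1 and 10.8, and the beta-glucuronidase gene GUSB with 12.8 and 8.63. USF2 at GUSB had a fold of 7.19. Of 25 genes of the V-ATPase, the proton pump of lysosomes, only ATP6V1B2 had a member, with PLAG1-S folds of 20.3 and 15.6, and 9 had a co-bound peak. Of 53 autophagy genes 3 had a member, STX17 and TFEB through clone 4 and SQSTM1 through clone 5, and 12 had a co-bound peak. SQSTM1, a cargo receptor, had PLAG1-S folds of 4.42 in clone 4 and 8.86 in clone 5. Its clone 5 USF2 peak was weak, with a fold of 3.43, a −log10 q of 1.82 and 12 fragments.

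Glycolysis was the list with the largest share of members, 6 of 36 genes (16.7%), beside 5 with a co-bound peak and 24 with any reproducible PLAG1-S peak. The 6 were ALDOA, ENO2, HK2, LDHA, LDHB and the glucose transporter gene SLC2A1, all through clone 4. Folds of PLAG1-S were 17.9 and 16.0 at HK2, 16.9 and 11.9 at ALDOA, 16.3 and 13.8 at LDHA, and 14.8 and 18.0 at SLC2A1, the last higher in clone 5. Of 25 genes listed under the MYC, MAX and MLX network 4 had a member, MNT with 17.6 and 11.4, HIF1A with 17.4 and 10.3, TFAP4 with 11.1 and 14.1, and MXD4. That list is a broad one, since HIF1A and TFAP4 are not MAX or MLX partners. Only MXD4 was reached through both subsets.

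Lipid synthesis had 5 of 35 genes with a member, all through clone 4, namely INSIG1, LSS, MVD, SREBF1 and TM7SF2. INSIG1, a sterol sensor partner, had PLAG1-S folds of 11.5 and 7.73, and SREBF1, a regulator of the pathway, 8.502 and 6.31. Of 39 heme and iron genes 4 had a clone 4 member, BLVRB, UROD and the ferritin genes FTH1 and FTL. At BLVRB, a biliverdin reductase, the summits of PLAG1-S (20.3 and 16.0) and USF2 (6.36) were 1 bp apart. Of 25 clock genes 3 had a member, CLOCK with 17.3 and 9.66, NR1D1, a clock repressor, with 16.1 and 12.4, and DBP with 13.8 and 11.6. Of 37 blood transcription factor genes 2 had a member, CEBPA and ZFPM1, the latter with 8.80 and 6.90. These counts are small, and no list was tested.

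DNMT3A, a DNA methyltransferase, had a clone 4 member at its upstream end, at chr2:25340581-25341890. PLAG1-S had folds of 16.2 and 14.2 there, and the clone 4 USF2 summit, with a fold of 4.73, lay 579 bp from the PLAG1-S summit. MSI2, SOCS2 and HOXB4 had no member within 1 kb of an end.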

How the data were processed

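ChIP-seq libraries of PLAG1-S (FLAG) and USF2 came from 2 K562 clones. The authors deposited 1 MACS2 peak list per library, called against merged inputs that all 4 lists share, on hg38. The submitters' processing notes name FastQC, cutadapt, HISAT2 2.0.4, SAMtools, MACS2, bedtools and HOMER. The deposited fold is a ratio of the summit pileup to the local background, the deposited −log10 p and −log10 q come from a Poisson model, and the deposited score is 10 times the −log10 q, rounded down. Read depth by sample was taken from the labels. The PLAG1-S lists end at q-values of 0.0099 and 0.0097 and the USF2 lists at 0.049 and 0.048. Fragments at summits were recovered from fold and p (tolerance 0.001, at least 99.9% of peaks), with at least 11 fragments per peak.

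Peaks were joined with Python 3.11.15, numpy 2.4.6, pandas 2.3.3 and scipy 1.17.1, and figures were drawn with matplotlib 3.10.9. The largest fold was used where clone 4 peaks met several peaks of clone 5. Shares carry 95% Wilson intervals, differences Newcombe intervals and medians exact binomial intervals. All of these cover counting error only, since peaks and windows are not replicates and there are 2 clones, so no p-value is given. The steps were tested on simulated data. Same-numbered libraries come from the same clone, which pairs PLAG1-S with USF2, and the replicate block averages the subsets. Genes and promoters are from RefSeq (GRCh38.p14), with 59679 genes. The sequence of the peaks outside promoter windows was not used here.

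Members, gene lists and the choice of named genes were made with earlier results of these data known. Named genes are, per subset, the top 5 members by clone 4 PLAG1-S fold and the top 5 by USF2 fold near a coding gene end. Genes the study discusses were added, and up to 10 genes with a member of each subset. Up to 4 genes were added per list and subset. Genes listed by name alone stand outside that limit. Alternatives changed the distance, thresholds, overlap, coordinates, gene models and libraries. The values of 1 listed gene are not reported here.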

Additional observations from a re-analysis of the deposited data

Results flagged for a closer look

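The subsets differed under the same contrast in 4 measures, each clone 4 minus clone 5 with a 95% Newcombe interval that leaves out 0. The share within 1 kb of a coding gene start differed by 16.8 points. This start share was not recomputed with the shortened clone 4 USF2 list or with a −log10 q of at least 5. The share within 1 kb of either end of a coding gene differed by 9.46 points, although 6 of the settings tried brought 0 into that interval. The share on chromosome 22 differed by -11.6 points, beside a higher local background at those peaks. The share with the higher PLAG1-S fold in clone 4 differed by 15.4 points, and the median ratios of the subsets were close in the 3 strongest groups of PLAG1-S fold. Intervals cover counting error over peaks, and with 2 clones a difference between clones cannot be told apart from a difference between libraries. No group has 4 samples, so single libraries were not screened for outlying values.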

How the results depend on the processing

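No median ratio or difference in gene end share changed sign, and 105 of 167 recomputed values stayed within the interval or within 1.5 times the count reported. The causes of the other changes were not tested. With a −log10 q of at least 5 the members were 1883, of them 1733 in clone 4 and 144 in clone 5, the subsets differed by 8.59 points in gene end share, members minus co-bound came to -19.6 points, the median log2 PLAG1-S ratio with over without USF2 to 0.36, the clone 4 over clone 5 ratios to 0.39 and 0.17, and the USF2 folds to 4.98 and 4.73. With the clone 4 USF2 list cut to the size of the clone 5 list these were 1896, 1381 and 500 members, 4.40 points, -20.0 points, 0.30, 0.39 for clone 4, and folds of 5.00 and 3.95, with members minus no USF2 at 2.56 points and the clone 4 share at 43.0%. With USF2 within 500 bp, members minus no USF2 was 8.11 points and the ratios 0.23 and, for clone 4, 0.25. With 50% reciprocal overlap they were 10.2 points, 0.29 and 0.32, with a clone 4 USF2 fold of 4.30. With clone 5 coordinates the clone 4 ratio was 0.32.

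Gene ends within 3 kb gave shares of 54.6% and 49.3%, 5.33 points apart, and -11.8 points against co-bound. Genes of all types gave 55.7% and 49.7%, 6.04 points apart, and 8.00 points against no USF2. Gene starts gave 40.3% and 23.4%, 16.8 points apart. The other settings of this paragraph were chosen after seeing the data. The summit gave 42.7% for clone 4, chromosomes other than 9 and 22 gave 41.7% for clone 5 and 5.32 points, the weaker 5 groups gave -0.87 and 2.87 points against co-bound and no USF2, and the stronger 5 gave 6.35 points between the subsets and 9.61 against no USF2. In the 3 strongest groups the ratio with over without USF2 was 0.37, and the clone ratios were 0.39 and 0.38.

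Recovered fragments in place of fold gave 0.35 with over without USF2 and clone ratios of 0.39 and 0.14. The replicate block on the clone put the ratio with over without USF2 at 0.11. The E-box shares were 38.7% and 39.4% in windows with the PLAG1-S summit, and 30.1% for clone 4 with CATGTG added. Leaving out each PLAG1-S library in turn gave 3623 to 3738 members, 3181 to 3209 in clone 4 and 398 to 482 in clone 5. It gave gene end shares of 42.6% to 42.9% and 31.8% to 32.2%, 10.7 to 10.8 points apart. Against co-bound the range was -17.8 to -17.5 points and against no USF2 6.34 to 12.5 points, and USF2 folds were 4.20 to 4.21 and 3.97 to 4.06. No PLAG1-S ratio can be had without either library, and without either USF2 library the rule cannot be applied.

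About 20 fragments lay over a typical USF2 summit of a member, so a missing call in the other clone is not the absence of USF2 there.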
